A study of Mus musculus with 6 samples.

Results

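The kinesin and dynein motor subunits were examined in the embryonic mouse cortex with and without deletion of Ybx1. Members were the rows of the gene table whose symbol begins with Kif and a number, Kifc, Klc, Dync or Dynl, and 60 of the 17348 genes met this rule. They were divided into 13 mitotic kinesins, 15 neuronal kinesins, 6 ciliary and centriolar kinesins, 6 other kinesins, 4 kinesin light chains, 5 chains of cytoplasmic dynein 1, 2 chains of cytoplasmic dynein 2, 5 light chains shared between dyneins, and the 4 tandem copies of Dynlt1. Cortices of E13.5 embryos were dissected and their RNA sequenced, with 3 libraries labelled WT and 3 labelled cKO. The cKO embryos carried Nestin-Cre and Ybx1 fl/fl on a line made in C57BL/6J eggs. The controls are labelled WT and were wild-type littermates according to the sequencing methods, while Ybx1 fl/fl without Cre served as control elsewhere in the study. Nestin-Cre acts in neural progenitors and their progeny, so cells of other origin in the dissected tissue keep Ybx1.

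Kinesins and dynein are motors that walk along microtubules by hydrolysing ATP, most kinesins towards the plus end and dynein towards the minus end. In dividing cortical progenitors, mitotic kinesins build the spindle, align chromosomes and complete cytokinesis, and dynein also carries the nucleus during interkinetic migration. In newborn neurons, transport kinesins bring cargo into the axon, and dynein with its partners Lis1 and dynactin pulls the nucleus during migration.

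The library totals lay between 15907491 and 16282929 estimated counts, and values per library are given as normalised CPM, counts divided by the scaled library total. The targeted gene Ybx1 stood at 1021, 528 and 1220 CPM in the WT libraries and at 83.1, 117 and 147 CPM in the cKO libraries, without overlap. Its log2 fold change was -3.00 (SE 0.33), and the quasi-likelihood test of edgeR, adjusted after Benjamini-Hochberg, gave an adjusted p of 0.128, so the targeted gene itself did not pass the threshold of 0.05. The library labelled WT replicate 2 had the lowest Ybx1 of its group, and without it the adjusted p was 0.0206. The library labelled cKO replicate 3 held markers of other tissue: 12 epidermis genes summed to 355.9 CPM there and to between 12.7 and 14.6 CPM in the other 5 libraries, and 12 genes of mesenchyme and meninges summed to 703.8 CPM there and to between 36.7 and 60.5 CPM elsewhere. The basal keratin Krt5 was at 129.9 CPM in cKO replicate 3, at 0.06 CPM in WT replicate 3, and at 0 in the other 4 libraries. Cortical markers were present in every library, with Emx2 between 73.5 and 96.5 CPM and Tbr1 between 412 and 555 CPM. Main values are also given without these libraries, beside the results they moved most.

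The coding sequences of the Dynlt1 copies come first because they limit what can be read from the counts of each copy. Dynlt1 encodes a Tctex-type light chain of dynein. In GENCODE M21 (GRCm38) the copies lie on chromosome 17, with Dynlt1a at chr17:6306340-6317500 on the minus strand, Dynlt1b at chr17:6430112-6436296 on the plus strand, Dynlt1c at chr17:6601671-6609774 on the plus strand and Dynlt1f at chr17:6646602-6655900 on the minus strand. Each coding sequence has 339 bases. Those of Dynlt1a, Dynlt1c and Dynlt1f are identical, and that of Dynlt1b differs from Dynlt1a by the single substitution C21A, counted from 1 at the A of the start codon. The first 60 coding bases of each copy follow, 5′ to 3′, with the base that differs in capitals.
Dynlt1a: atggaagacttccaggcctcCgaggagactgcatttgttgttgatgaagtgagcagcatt
Dynlt1b: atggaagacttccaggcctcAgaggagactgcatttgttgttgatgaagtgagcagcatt
Dynlt1c: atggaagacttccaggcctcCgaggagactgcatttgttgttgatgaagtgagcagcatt
Dynlt1f: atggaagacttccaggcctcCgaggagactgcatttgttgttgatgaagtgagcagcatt

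An annotated pseudogene on chromosome 6, Dynlt1-ps1 at chr6:135349408-135349749, has 342 bases, and the Dynlt1a coding sequence matches it without a difference. Outside the coding sequence the copies differ more. Windows of 100 bases were taken along the longest protein-coding transcript of each copy and sought in the other copies and in Dynlt1-ps1. For Dynlt1a 56.1% of windows were found in none of them, against at most 18.0% for each of the other 3 copies. These transcripts differ in length, with 3321 bases for Dynlt1a, 2589 for Dynlt1c and 771 for Dynlt1b and Dynlt1f. How reads were divided among the copies by the estimation of counts therefore bears on each copy's value, and their sum was analysed beside them. Exons of Dynlt1a also overlap Tmem181a and Gm26848 on the opposite strand, and whether counting used strand is not stated.

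Promoter sequences of the mitotic kinesins are shown because these genes varied together over the libraries, as described further on. RefSeq promoters (GRCm38.p6, from 250 bases before to 50 after the start) were at hand for 45 of the 60 members. The letters TTTGAA, read on either strand, are the core of the cell cycle genes homology region found in many genes of the late cell cycle, and CCAAT on either strand is often found upstream of it. A member with several promoters was counted once if any of them held a match. The shares of all promoters were counted promoter by promoter, so the bases of the counts differ. TTTGAA occurred for 11 of 12 mitotic kinesins, for 1 of 11 neuronal kinesins (Kif1a), and in 17.9% of all 32851 promoters. Between 50 bases before and 30 after the start it occurred for 8 of 12, for 1 of 11 and in 4.06%. CCAAT occurred for 8 of 12 mitotic and 3 of 11 neuronal kinesins and in 37.4% of all promoters. Such matches describe the letters only, and no binding was measured here. As examples, the stretch from 50 bases before to 30 after the start is shown for 4 mitotic kinesins that all hold TTTGAA there. It is also shown for the neuronal Kif5c, which holds neither motif there. These examples do not stand for their groups, since 8 of 12 mitotic kinesins and the neuronal Kif1a hold TTTGAA in this stretch. Sequences are on the strand of the gene, with matches to either motif in capitals.
Kif11, chr19:37376332-37376411, plus strand: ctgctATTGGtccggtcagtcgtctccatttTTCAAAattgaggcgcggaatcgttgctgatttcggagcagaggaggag
Kif22, chr7:127042391-127042470, minus strand: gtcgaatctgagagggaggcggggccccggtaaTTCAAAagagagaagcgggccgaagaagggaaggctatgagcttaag
Kif23, chr9:61946770-61946849, minus strand: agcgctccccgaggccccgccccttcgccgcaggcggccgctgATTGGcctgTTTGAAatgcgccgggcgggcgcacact
Kif4, chrX:100626015-100626094, plus strand: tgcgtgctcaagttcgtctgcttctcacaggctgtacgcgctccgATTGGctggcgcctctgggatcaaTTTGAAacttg
Kif5c, chr2:49619236-49619315, plus strand: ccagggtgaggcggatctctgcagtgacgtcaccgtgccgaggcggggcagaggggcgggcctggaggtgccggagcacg

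To see which motors the E13.5 cortex uses, levels were compared per transcript length, as TPM, which the table gives scaled for length and depth, averaged over the 6 libraries. The dynein light chain Dynlrb1, of the roadblock family, had the highest level at 714 TPM, followed by the light chain Dynll1, of the LC8 family, at 317 TPM. The dynein 1 intermediate chain Dync1i2 stood at 302 TPM, the neuronal kinesin Kif21b at 273 TPM, and the kinesin light chain Klc1 at 263 TPM. In all, 16 of the 60 members had a mean of at least 100 TPM and 8 had a mean under 2 TPM. Among mitotic kinesins the levels ran from 13.3 TPM for Kif14, which acts in cytokinesis, to 132 TPM for Kif11, the motor that pushes spindle poles apart. Among neuronal kinesins they ran from 0.28 TPM for Kif17 to the level of Kif21b. The 6 members grouped as ciliary and centriolar kinesins were low, between 0.50 and 12.03 TPM. Kif3a and Kif3b, which also serve cilia, were counted as neuronal kinesins here and stood at 62.0 and 29.4 TPM. Along the order of mean levels, the ranges of neighbouring genes over the 6 libraries overlapped in all but 9 of 59 neighbouring pairs. Dynlrb1 stood clear of Dynll1, Klc1 of Dynlt1c, Kif5c of Kif1b, and Kif21a of Dync1li2. Dynll1 and Dync1i2 overlapped each other and Kif21b, and Kif21b overlapped Klc1.

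**Figure D1:**
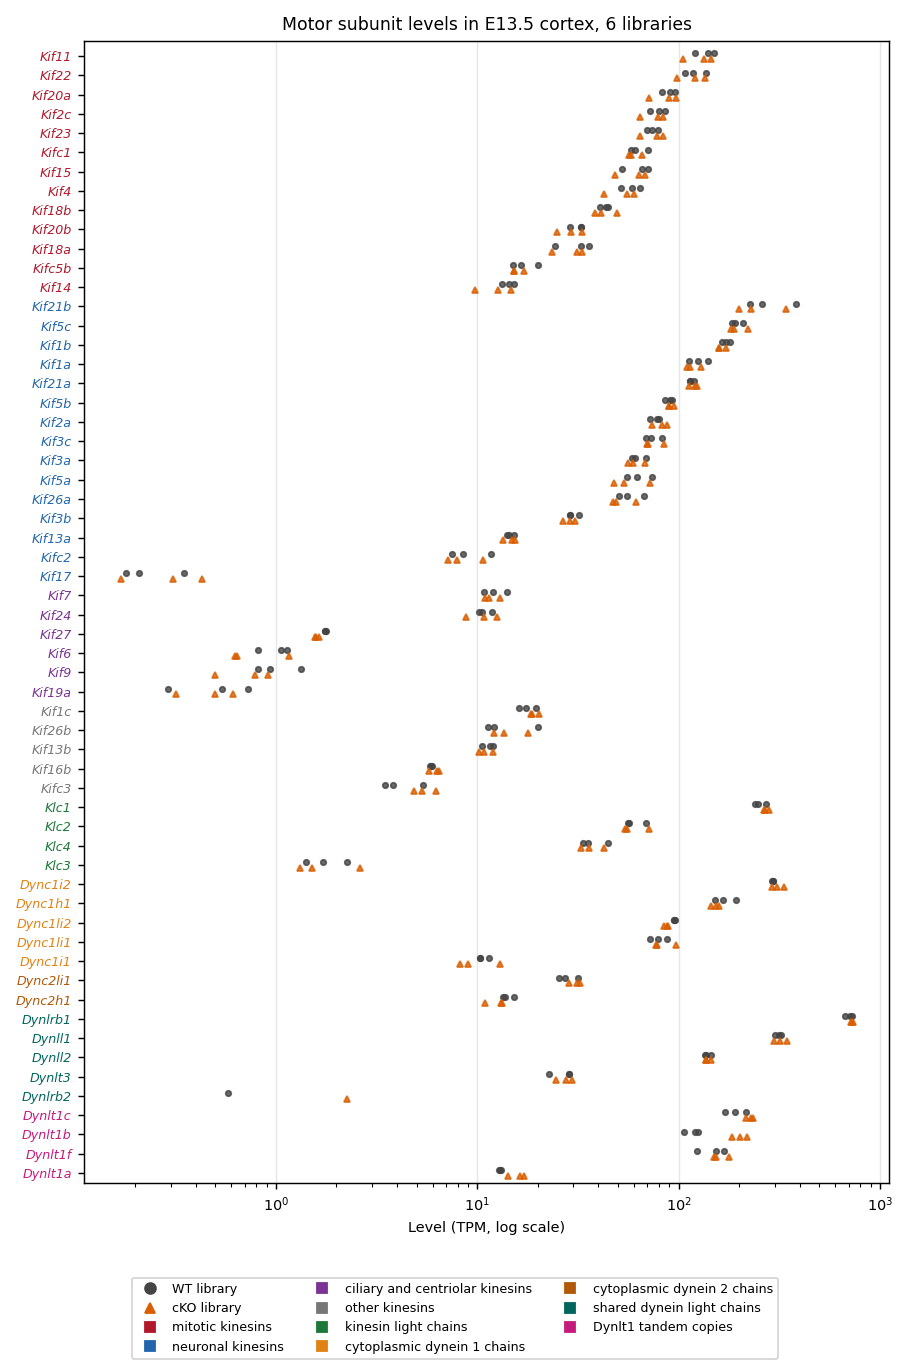
Level of each member in TPM on a log axis, with the 3 WT libraries as dots and the 3 cKO libraries as triangles, grouped and coloured by motor class. Dynlrb1 is highest at 714 TPM, the means of the group of ciliary and centriolar kinesins are at or below 12.03 TPM, and WT and cKO symbols overlap for most genes. Libraries at 0 TPM are not drawn, nor is Kif28.

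The cKO libraries were then compared with the WT libraries gene by gene. Of the 60 members, 57 passed the filter on low counts. Kif17, with 4 to 11 counts per library, Kif28, with 0 or 1, and Dynlrb2, with 0 to 4, were not tested. No member passed the adjusted threshold in either direction (0 of 57 higher, 0 of 57 lower), and neither did any gene of the table (0% higher and 0% lower of 13340). Without adjustment, 2 of 57 members had a p under 0.05 and were higher in cKO, which is 3.51% against 1.75% of all tested genes, and 0 were lower, against 1.81%. Over both directions 3.57% of all tested genes had such a p. Both were Dynlt1 copies, Dynlt1b and Dynlt1a. With DESeq2, 1 member (Dynlt1b) was called, and with limma-voom or limma on log2(TPM + 1), 0 were called. How many of all tested genes these alternatives called is not given here.

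Genotypes did not overlap for 4 members that were higher in cKO (Dynlt1b, Dynlt1a, Klc1 and Kif1c), or 7.02% against 4.21% of all tested genes, and for 4 that were lower (Dync1li2, Kif1b, Kif9 and Kif27), or 7.02% against 4.83%. Over both directions 9.04% of all tested genes did not overlap. These counts were made on CPM, and in TPM the genotypes overlapped for Klc1, Kif1c, Kif1b and Kif9. A negative log2 fold change was found for 34 of 57 members, or 59.6% against 49.2% of all tested genes. The median log2 fold change over the 57 members was -0.05, and that over all tested genes was 0.00. Differences were small: 53 of the 57 members lay within 1.2-fold, with a median SE of 0.11 on the log2 scale. The share of all tested genes within 1.2-fold is not given here. Outside it lay Dynlt1b, Dynlt1a, Kif9 and Kifc3, the last with a log2 fold change of 0.35 (SE 0.17) and overlapping genotypes.

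**Figure D2:**
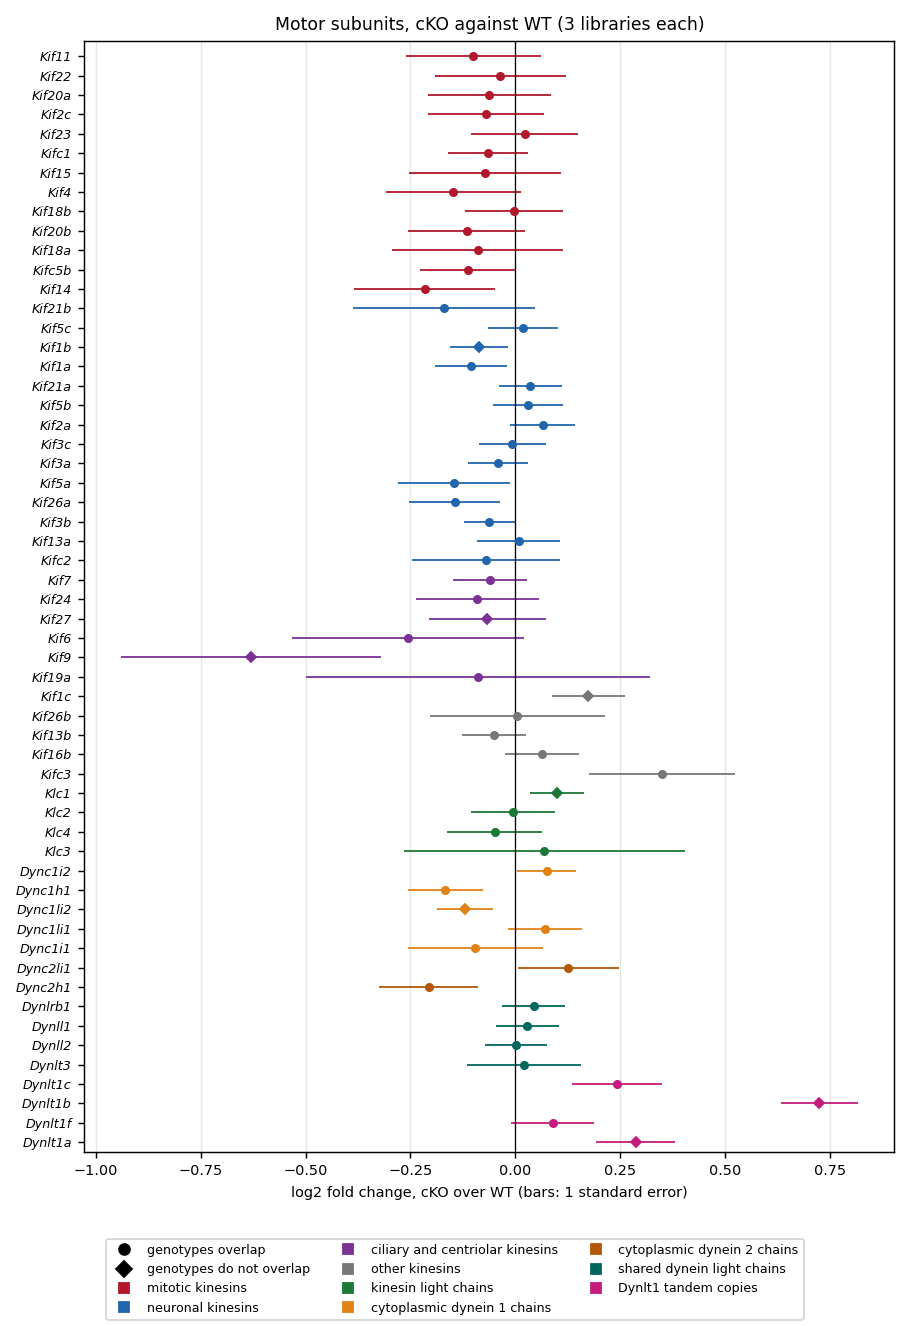
Log2 fold change of cKO over WT for the 57 tested members, with bars of 1 standard error, coloured by motor class, and with diamonds where the 3 cKO and 3 WT libraries do not overlap in CPM. Dynlt1b lies farthest to the right at 0.72 and Kif9 farthest to the left at -0.63, and all mitotic kinesins lie between -0.22 and 0.02.

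Dynlt1b and Dynlt1a were the only motor subunits with an unadjusted p under 0.05, and all 4 Dynlt1 copies had a positive log2 fold change (median 0.26). Dynlt1b had 35.99, 35.9 and 31.8 CPM in WT and 62.2, 53.2 and 55.9 CPM in cKO. Every cKO library lay above every WT library by more than the spread within either genotype. The means were 34.6 ± 2.38 and 57.1 ± 4.63 CPM (SD, n = 3), a log2 fold change of 0.72 (SE 0.09), and edgeR's quasi-likelihood test gave an adjusted p of 0.219, whereas DESeq2 gave 8.87e-07, and over the 14 alternatives the adjusted p ran from that value to 0.9999. With 1 library left out at a time the log2 fold change stayed between 0.67 and 0.77, and it was 0.77 without WT replicate 2 and cKO replicate 3.

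Dynlt1a had 27.6, 29.7 and 29.3 CPM in WT and 36.6, 37.5 and 31.6 CPM in cKO. The genotypes did not overlap, though cKO replicate 3 lay close to WT. Its log2 fold change was 0.29 (SE 0.09), with an adjusted p of 0.99995 in edgeR, and it was 0.36 without cKO replicate 3. Dynlt1c had 35.7, 34.7 and 43.3 CPM in WT and 41.3, 46.9 and 46.3 CPM in cKO, a log2 fold change of 0.24 (SE 0.11). Dynlt1f, the copy with most counts, had 56.4, 71.0 and 64.1 CPM in WT and 67.5, 73.3 and 62.9 CPM in cKO, a log2 fold change of 0.09 (SE 0.10). For these last 2 copies the genotypes overlapped. Leaving out WT replicate 1 gave 0.01 for Dynlt1f, leaving out WT replicate 2 gave 0.17, and without WT replicate 2 and cKO replicate 3 together Dynlt1c stood at 0.16 and Dynlt1f at 0.22.

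The sum of the 4 copies does not depend on how reads were divided among them. Reads shared with the pseudogene Dynlt1-ps1, or with genes on the opposite strand of Dynlt1a, could still bear on it, which was not tested. The sum was 155.8, 171.2 and 168.5 CPM in WT and 207.5, 210.9 and 196.6 CPM in cKO. All cKO sums lay above all WT sums, with means of 165.2 ± 8.23 and 205.0 ± 7.47 CPM (SD, n = 3), a 1.24-fold difference. The exact two-sided permutation test over the libraries gave p = 0.1, the smallest value that 3 against 3 libraries allow. With the copies entered as 1 row, edgeR's quasi-likelihood test gave a log2 fold change of 0.31 (SE 0.07, adjusted p = 1) and DESeq2 an adjusted p of 0.0779. Without WT replicate 2 and cKO replicate 3 the log2 fold change of the sum was 0.37.

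The share of the summed counts that was given to Dynlt1b differed as well. It was 23.1%, 20.96% and 18.9% in WT and 29.98%, 25.2% and 28.4% in cKO, again without overlap (20.98% ± 2.11 against 27.9% ± 2.42, SD, n = 3, exact permutation p = 0.1). The share given to Dynlt1f was lower in all cKO libraries, at 33.1% ± 1.47 against 38.6% ± 2.66 (exact permutation p = 0.1), while those of Dynlt1a and Dynlt1c overlapped between genotypes. The other 3 copies together had 130.6 ± 9.39 CPM in WT and 147.9 ± 8.77 CPM in cKO, a 1.13-fold difference, and their sums did not overlap either (exact permutation p = 0.1). Genes of interneurons and ventral forebrain also had higher summed levels in the cKO libraries, at 227.6, 243.4 and 221.5 CPM against 157.5, 150.8 and 211.4 CPM in WT. Of the 13 genes in that list, 9 passed the filter on low counts. An unadjusted p under 0.05 was found for 6 of these 9, all higher in cKO, against 1.75% of all tested genes. The adjusted threshold was passed by 0 of 9, and the part of this list in the Dynlt1 values was not tested.

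**Figure D3:**
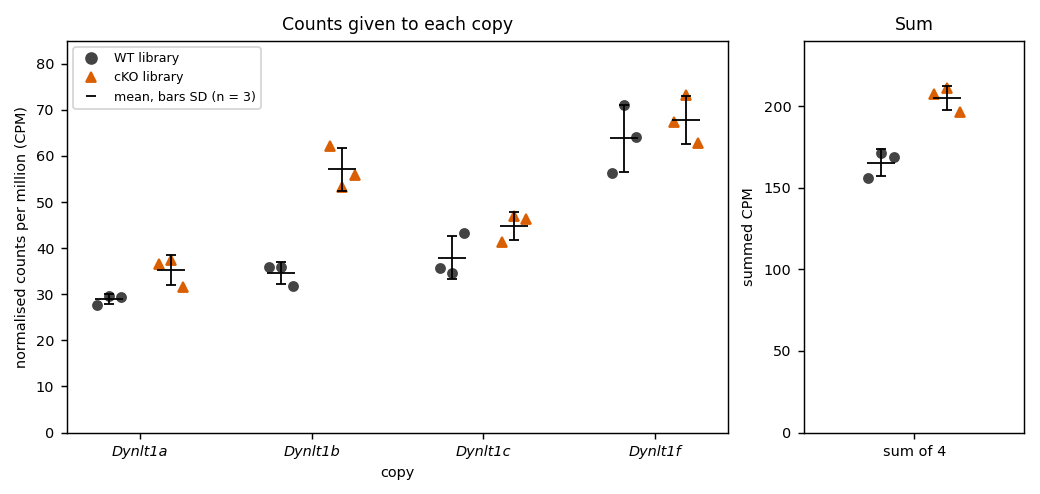
Normalised CPM given to each Dynlt1 copy (left) and their sum (right) in each WT library (dots) and cKO library (triangles), with means and SD (n = 3). The genotypes are apart for Dynlt1a, Dynlt1b and the sum (155.8 to 171.2 CPM in WT and 196.6 to 210.9 CPM in cKO) and overlap for Dynlt1c and Dynlt1f.

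Mitotic kinesins varied more between libraries of a genotype than between genotypes. Their median log2 fold change was -0.07, and 12 of 13 had a negative value, with Kif23, a subunit of the centralspindlin complex of cytokinesis, at 0.02. None of the 13 had an unadjusted p under 0.05, and for none were the genotypes apart. Kif11 had 250.3, 336 and 308 CPM in WT and 219, 326 and 289 CPM in cKO. Its low values were those of replicate 1 in both genotypes, and the genotypes overlapped (log2 fold change -0.10, SE 0.16). Kif22, a chromosome-bound motor that moves chromosome arms, had 95.9, 121 and 93.0 CPM in WT and 80.4, 119.6 and 102 CPM in cKO (log2 fold change -0.04, SE 0.16). Kif20a, which acts at the cleavage furrow, had 119.7, 153 and 141 CPM in WT and 105, 154 and 137 CPM in cKO (log2 fold change -0.06, SE 0.15). Its exons overlap Cdc23 on the opposite strand. The minus-end motor genes Kifc1 and Kifc5b are close copies, with 76.3% and 78.8% of windows of 100 bases found in no other copy, and their sum was 80.3 ± 5.30 CPM in WT and 76.1 ± 8.61 CPM in cKO (SD, n = 3, exact permutation p = 0.5).

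Summed over the 13 genes, mitotic kinesins stood at 1148, 1462 and 1348 CPM in WT and at 1005, 1460 and 1284 CPM in cKO. The means were 1320 ± 159 and 1250 ± 230 CPM (SD, n = 3), or 94.7% of WT in cKO, and the difference was smaller than either SD. The libraries of replicate 1 were the low ones. In both genotypes, 10 of 13 mitotic kinesins were lowest in replicate 1, against 26.9% of all tested genes, and cKO replicate 1 was the lowest of all 6 libraries for 13 of 13, against 20% of all tested genes. The median log2 fold change of the group was 0.06 without cKO replicate 1, and without both replicate 1 libraries it was -0.03. Without WT replicate 2 and cKO replicate 3 it was -0.01. Leaving out WT replicate 1 gave -0.16, leaving out cKO replicate 2 gave -0.20, and leaving out cKO replicate 1 was the only one of these removals that turned its sign. Kif18a, which damps chromosome movements at the metaphase plate, had the largest SE of the group (0.20), with 34.0, 54.8 and 49.1 CPM in WT and 33.1, 50.4 and 46.0 CPM in cKO, and Kif15, a spindle motor that can stand in for Kif11, had 108, 158 and 144 CPM in WT and 100.2, 153 and 137 CPM in cKO. In both genes replicate 1 was lowest within each genotype.

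The same libraries stood out for genes that are no motors. A list of 20 mitosis genes summed to 3746, 4950 and 4704 CPM in WT and to 3177, 5024 and 4308 CPM in cKO, and 19 of the 20 were lowest in replicate 1 of both genotypes. Radial glia genes showed lower sums there too, at 2312 CPM in WT replicate 1 and 2214 CPM in cKO replicate 1, against 2843 to 3201 CPM in the other libraries. Neuron genes summed to 7138, 6024 and 6639 CPM in WT and to 7400, 5914 and 5814 CPM in cKO, with 12 of 16 highest in replicate 1 of both genotypes. The part of such differences between dissections in the kinesin values was not tested, and in bulk tissue fewer cells of a type and less RNA per cell cannot be told apart.

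**Figure D4:**
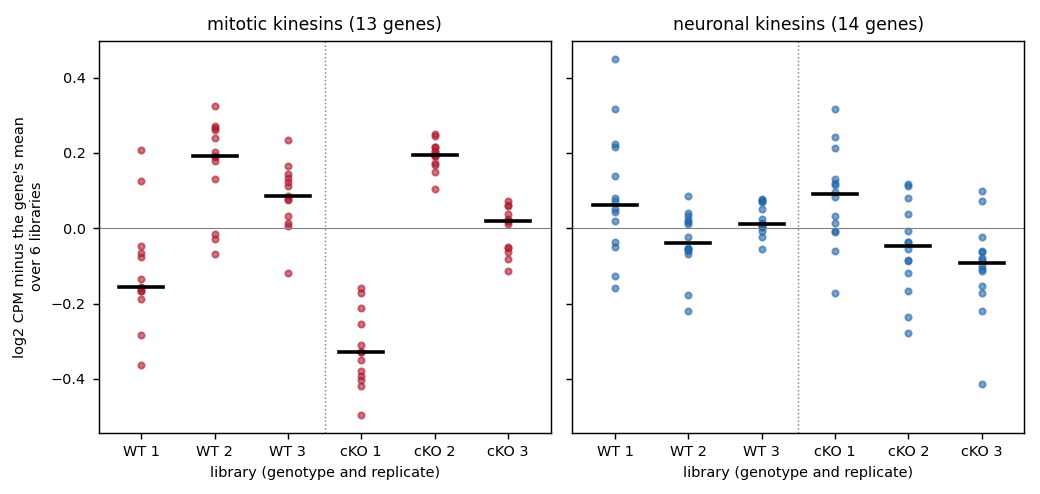
Log2 CPM of each mitotic kinesin (left, 13 genes) and each tested neuronal kinesin (right, 14 genes) minus the gene's mean over the 6 libraries, with black bars for the median in each library. The mitotic kinesins lie low in replicate 1 of both genotypes (medians -0.16 in WT and -0.33 in cKO), where the neuronal kinesins lie high (0.06 and 0.09).

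Neuronal kinesins had a median log2 fold change of -0.05, with 9 of 14 tested genes below 0. None had an unadjusted p under 0.05, and only Kif1b showed no overlap between genotypes. Kif21b, which walks along microtubules and limits their growth, had 1525, 987 and 1110 CPM in WT and 1389, 994 and 837 CPM in cKO. Replicate 1 was highest in both genotypes and the values overlapped, with a log2 fold change of -0.17 (SE 0.22). Kif1b, a carrier of synaptic vesicle precursors and mitochondria, had 743.5, 730.0 and 756 CPM in WT and 716, 703 and 680.4 CPM in cKO. All 3 cKO values lay below the WT values, by little (log2 fold change -0.09, SE 0.07, adjusted p = 0.99995 in edgeR).

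Summed over 14 genes, neuronal kinesins stood at 5007, 4342 and 4532 CPM in WT and at 4885, 4310 and 4003 CPM in cKO, with means of 4627 ± 343 and 4399 ± 448 CPM (SD, n = 3). They were highest in replicate 1 of both genotypes for 9 of 14 genes, against 25.2% of all tested genes, and lowest of all libraries in cKO replicate 3 for 8 of 14, against 18.4%. That library is the one with epidermis and mesenchyme markers, and without it the median log2 fold change of the group was -0.02. The ratio of summed neuronal to summed mitotic kinesin CPM was 4.36, 2.97 and 3.36 in WT and 4.86, 2.95 and 3.12 in cKO. It was highest in replicate 1 of each genotype, and the genotypes overlapped.

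Kinesin-1 is built of heavy chains, encoded by Kif5a, Kif5b and Kif5c, and of light chains that bind cargo. Kif5c, the main heavy chain by level, had 621, 617.5 and 589 CPM in WT and 671, 609 and 571 CPM in cKO (log2 fold change 0.02, SE 0.08). Kif5a, a neuronal heavy chain, had 192, 159 and 174 CPM in WT and 192, 136 and 147 CPM in cKO (log2 fold change -0.15, SE 0.13), and its log2 fold change ran from -0.30 without cKO replicate 1 to -0.05 without cKO replicate 2. The summed level of the 3 heavy chains was 347 ± 17.5 TPM in WT and 347 ± 32.6 TPM in cKO (SD, n = 3), of which Kif5c made up 55.9% ± 1.01 and 56.9% ± 1.52. Heavy chain level and composition thus differed by less than the spread between libraries.

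Klc1, the main neuronal light chain, had 263, 249.5 and 254 CPM in WT and 273, 281 and 267 CPM in cKO. In CPM the cKO values all lay above WT (1.07-fold, log2 fold change 0.10, SE 0.06), and edgeR gave an adjusted p of 0.99995. In TPM the genotypes overlapped, with WT replicate 1 at 272.2 and cKO replicates 2 and 3 at 268.6 and 265.7. Without WT replicate 2 and cKO replicate 3 the log2 fold change was again 0.10. Its exons overlap Xrcc3 on the opposite strand. Klc2, a light chain found in many tissues, had 82.2, 73.4 and 72.3 CPM in WT and 86.4, 70.8 and 69.7 CPM in cKO (log2 fold change -0.01, SE 0.10). Klc4 had 44.1, 38.4 and 35.4 CPM in WT and 41.9, 37.9 and 34.0 CPM in cKO (log2 fold change -0.05, SE 0.11). Both overlapped between genotypes. Summed light chain level was 354 ± 28.9 TPM in WT and 371 ± 22.1 TPM in cKO (SD, n = 3, exact permutation p = 0.5), and Klc1 made up 71.8% ± 1.35 and 73.4% ± 2.04 of it.

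Cytoplasmic dynein 1, the main minus-end motor of the cell body and axon, is a complex of heavy, intermediate, light intermediate and light chains. Its heavy chain Dync1h1, which holds the motor domain, had 1236, 1053 and 1137 CPM in WT and 1023, 1062 and 967 CPM in cKO. One cKO library lay just above the lowest WT library, and the log2 fold change was -0.17 (SE 0.09, adjusted p = 0.99995 in edgeR), or -0.10 without WT replicate 1. The intermediate chain Dync1i2, which binds dynactin, had 306, 329 and 324.5 CPM in WT and 350.3, 326 and 334 CPM in cKO (log2 fold change 0.07, SE 0.07). The light intermediate chain Dync1li2, which binds cargo adaptors, had 197, 216 and 209.9 CPM in WT and 187.5, 195 and 191 CPM in cKO. All its cKO values lay below WT (log2 fold change -0.12, SE 0.07, and -0.09 without WT replicate 2 and cKO replicate 3).

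Summed over the 5 dynein 1 chains, the counts stood at 1822, 1674 and 1751 CPM in WT and at 1654, 1660 and 1567 CPM in cKO. The sums did not overlap, with means of 1749 ± 73.8 and 1627 ± 52.2 CPM (SD, n = 3), or 93.0% of WT in cKO, and 92.8% without WT replicate 2 and cKO replicate 3. Dync1h1 contributes most of this sum, on which no test was run. The median log2 fold change of the group was -0.10, with 3 of 5 genes below 0, and it was 0.02 without cKO replicate 2 and -0.03 without cKO replicate 3. Of the cytoplasmic dynein 2 chains, which drive retrograde transport inside cilia, the heavy chain Dync2h1 had 82.1, 98.9 and 86.1 CPM in WT and 64.5, 84.8 and 82.1 CPM in cKO (log2 fold change -0.21, SE 0.12), and its log2 fold change was -0.09 without cKO replicate 1 and -0.13 without WT replicate 2. Its light intermediate chain Dync2li1 had 13.3, 16.9 and 13.2 CPM in WT and 15.97, 15.2 and 16.1 CPM in cKO (log2 fold change 0.13, SE 0.12), and its log2 fold change was 0.25 without WT replicate 2 and 0.06 without WT replicate 3. Both chains overlapped between genotypes.

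The light chains outside the Dynlt1 copies differed little. Dynlrb1 had 125, 144.5 and 143 CPM in WT and 139, 146 and 140.4 CPM in cKO (log2 fold change 0.04, SE 0.07). Dynll1, which also serves as a hub protein outside dynein, had 248, 259.7 and 272 CPM in WT and 276, 272 and 248 CPM in cKO (log2 fold change 0.03, SE 0.08), and its close relative Dynll2 had 134, 156 and 146 CPM in WT and 146, 147 and 143 CPM in cKO (log2 fold change 0.00, SE 0.07). All 3 overlapped between genotypes, as did Dynlt3, the relative of Dynlt1 on the X chromosome, at 0.02 (SE 0.14). The median log2 fold change of these 4 tested light chains was 0.02, against 0.26 for the Dynlt1 copies.

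All 6 members grouped as ciliary and centriolar kinesins (Kif6, Kif7, Kif9, Kif19a, Kif24 and Kif27) had a negative log2 fold change. Their median was -0.09, and none had an unadjusted p under 0.05. Kif7, a regulator of Hedgehog signalling at the tip of the cilium, had 25.1, 22.4 and 23.8 CPM in WT and 23.5, 23.0 and 21.8 CPM in cKO (log2 fold change -0.06, SE 0.09). Kif24, which acts at centrioles, had 32.1, 35.9 and 36.5 CPM in WT and 26.0, 39.3 and 32.9 CPM in cKO (log2 fold change -0.09, SE 0.15). Both overlapped between genotypes. Kif9 and Kif27 were singled out after their values were seen, because their genotypes did not overlap. Kif9, a kinesin of motile cilia, had 1.70, 1.24 and 1.38 CPM in WT and 0.62, 1.004 and 1.15 CPM in cKO. Its log2 fold change was -0.63 (SE 0.31) at a very low count. That value was -0.41 without cKO replicate 1, -0.82 without cKO replicate 3, and -0.91 without WT replicate 2 and cKO replicate 3 together. Kif27 had 5.15, 5.08 and 5.44 CPM in WT and 5.05, 4.83 and 5.07 CPM in cKO, a log2 fold change of -0.07 (SE 0.14).

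Among the other kinesins, Kif1c, a transport motor of many cell types, had 39.9, 43.8 and 44.8 CPM in WT and 45.0, 47.7 and 52.2 CPM in cKO. The genotypes did not overlap, with WT replicate 3 and cKO replicate 1 nearly equal, and the log2 fold change was 0.17 (SE 0.09, adjusted p = 0.99995 in edgeR). It was 0.11 without cKO replicate 3, which had the highest value, and 0.13 without that library and WT replicate 2. Kif26b, a kinesin without motor activity, had 63.2, 38.9 and 40.9 CPM in WT and 57.6, 46.9 and 39.0 CPM in cKO (log2 fold change 0.00, SE 0.21). Replicate 1 was highest in both genotypes. The median of the 5 tested genes of this group was 0.06.

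Genes that work with the motors were read from 2 further lists. Of 22 tested genes of dynactin and dynein regulation, 0 passed the adjusted threshold in edgeR, and the median log2 fold change was -0.01. Genotypes did not overlap for 2 of the 22 that were higher in cKO and 3 that were lower, against 4.21% and 4.83% of all tested genes. An unadjusted p under 0.05 was found for 2 of the 22, both lower in cKO, against 1.81% of all tested genes. These were Actr1a, which builds the short filament of dynactin, at 307, 300.3 and 305 CPM in WT and 268, 268 and 274 CPM in cKO (log2 fold change -0.17, SE 0.06), and Bicd1, a cargo adaptor, at 56.2, 59.6 and 56.1 CPM in WT and 52.9, 49.5 and 48.5 CPM in cKO (log2 fold change -0.19, SE 0.07). Neither overlapped between genotypes. Pafah1b1, which encodes Lis1, had 332.5, 343.5 and 333 CPM in WT and 327, 322 and 326 CPM in cKO (log2 fold change -0.05, SE 0.06). Its genotypes did not overlap either, with the cKO values lower. Of 19 tested genes listed as partners and adaptors of kinesins, 0 passed the adjusted threshold in edgeR, and the median log2 fold change was -0.07. An unadjusted p under 0.05 was found for 0 of the 19, against 3.57% of all tested genes. The list includes Cenpe, itself a mitotic kinesin whose symbol fell outside the member rule (log2 fold change -0.18, SE 0.18).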

How the data were processed

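RNA of 6 E13.5 cortices, 3 WT and 3 cKO libraries by sample title and called biological replicates by the series design, was extracted with Trizol and sequenced on a DNBSEQ platform. The design names batches of sequencing but not which libraries they hold. The submitters' processing notes name HISAT2 2.2.1, Bowtie2 2.4.5 and RSEM 1.3.1 with GRCm38 (mm10). Gene annotation, read length and strand setting are not given in the sources used here. The table deposited by the authors gives estimated counts with no scaling for depth, of which 10.9% were not whole. Its TPM columns, also deposited by the authors, are scaled for transcript length and for depth. The 6 FPKM columns and 6 columns of group averages were not used.

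The members and lists were chosen with earlier results of these data known. Estimated counts were rounded and filtered with filterByExpr (minimum count 10, minimum total 15), which left 13340 genes. Genotypes were compared with edgeR 4.0.16 (R 4.3.3; TMM, quasi-likelihood test, no covariate), and p-values were adjusted after Benjamini-Hochberg over all tested genes at 0.05. The common dispersion was 0.0169. The SE is the log2 fold change divided by the square root of F. CPM are TMM-normalised, and 0 counts allow up to 3 counts, 0.181 to 0.188 CPM, which covers counting error only. Sums and shares were tested with exact two-sided permutation tests. Only the edgeR fit was also run on simulated counts with planted changes. The outcome is not given here and does not speak for the power of the test in these libraries. DESeq2 1.42.0, limma 3.58.1 (voom, and log2(TPM + 1)), another scaling (RLE), no filter, a replicate block, the Dynlt1 copies summed, and libraries left out were alternatives. Leaving out both replicate 1 libraries was added after the data were seen. All 60 members were found in GENCODE M21 and matched to RefSeq by gene identifier, and 22 share exon bases with another gene, 12 of them with a protein-coding gene. Genes named were Ybx1, the Dynlt1 copies, members with an unadjusted p under 0.05, and the 3 highest members by TPM in 5 groups and the 2 highest in the others. Kif9, Kif27, Kif5a, Kif18a, Kif15 and other genes named outside this rule were chosen after values were seen.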

Additional observations from a re-analysis of the deposited data

How the results depend on the processing

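With 3 libraries per genotype and 0 calls in the whole table, a p over the threshold does not show that a motor subunit was the same in both genotypes, and low genes such as Kif9 are limited by depth. The count of called members stayed at 0 under all alternatives but DESeq2, which called 1 member higher (Dynlt1b). Ybx1 was at -3.00 on the log2 scale and passed the threshold with DESeq2 (-3.00), the replicate block (-2.95), and without WT replicate 2 and cKO replicate 3 together (-3.49), and with 1 library left out it ranged from -3.28, without WT replicate 2, to -2.75. Its adjusted p ran from 5.46e-10 to 0.953 over the alternatives. Members with an unadjusted p under 0.05 numbered 1 higher with the Dynlt1 copies in 1 row, between 1 and 4 higher and between 0 and 3 lower with 1 library left out, and 1 higher and 3 lower without both replicate 1 libraries. Members without overlap numbered 2 higher on log2(TPM + 1), between 5 and 7 higher and between 4 and 11 lower with 1 library left out, 11 higher and 8 lower without WT replicate 2 and cKO replicate 3, and 7 higher and 12 lower without both replicate 1 libraries. Smaller groups separate more easily. For these alternatives the shares of all tested genes are not given here, either for unadjusted p or for overlap. The counts of members can therefore not be set against the whole table and are not a result about motor subunits. The cause of the other differences was not tested.

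With 1 library left out, medians ranged from 0.0705 to 0.13 for other kinesins, from -0.0489 (without WT replicate 2) to 0.0576 for kinesin light chains, from -0.197 (without cKO replicate 2) to -0.0827 for ciliary and centriolar kinesins, and from -0.107 to 0.0164 (without cKO replicate 2) for dynein 1 chains. The dynein 1 median was -0.0213 without WT replicate 2 and cKO replicate 3, and that of other kinesins was 0.11 without both replicate 1 libraries. Of 30 named genes besides Ybx1, 16 kept their sign in every alternative, the 4 Dynlt1 copies among them, and 14 did not. Their log2 fold changes with 1 library left out ran from -0.0012 to 0.0741 for Dynll1, -0.0506 to 0.0558 for Dynll2, -0.0151 to 0.0796 for Dynlrb1, -0.233 to 0.0518 for Kif11, -0.214 to 0.0905 for Kif15, -0.263 to 0.0763 for Kif18a, -0.188 to 0.0859 for Kif20a, -0.391 to 0.0363 for Kif21b, -0.178 to 0.111 for Kif22, -0.244 to 0.058 for Kif24, -0.142 to 0.264 for Kif26b, -0.0377 to 0.0707 for Kif5c, -0.104 to 0.058 for Klc2 and -0.120 to 0.045 for Klc4. Of those that kept their sign, the range was -0.282 to -0.0854 for Dync2h1, -0.298 to -0.0515 for Kif5a, 0.0636 to 0.251 for Dync2li1, -0.223 to -0.103 for Dync1h1, 0.0109 to 0.172 for Dynlt1f, 0.181 to 0.348 for Dynlt1c, -0.104 to -0.0163 for Kif7, 0.0469 to 0.0957 for Dync1i2, -0.0873 to -0.0382 for Kif27 and 0.113 to 0.231 for Kif1c. Without WT replicate 2 and cKO replicate 3, signs changed to 0.0821 for Kif22, 0.025 for Klc2, 0.0063 for Klc4, 0.0078 for Kif18a and 0.0044 for Kif15. Without both replicate 1 libraries, they changed to -0.0278 for Dynll1, -0.0523 for Dynll2, 0.0575 for Kif22, 0.0001 for Kif24 and -0.026 for Kif5c, and with no filter Dynll2 stood at -0.0047.

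The replicate block gave 5 members higher and 6 lower at an unadjusted p under 0.05 and 0 past the adjusted threshold. The share of all tested genes under this fit is not given here, so these counts are not a result about motor subunits. Deviations of same-numbered libraries correlated at 0.41, 0.31 and -0.02 over genes, so the number was not taken as a pairing. WT replicate 3 correlated best with cKO replicate 2 (0.26), so not every library correlated best with its own number.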
